A study of Mus musculus with 12 samples.

Results

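The genes described here are 10 genes of the ATF4 and amino acid stress response: *Atf4*, *Ddit3*, *Trib3*, *Asns*, *Chac1*, *Sesn2*, *Psat1*, *Phgdh*, *Slc7a11* and *Hspa5*. They were chosen by name, and all 10 had a row in every library, among 25897 genes listed in either experiment. The first experiment compared osteoblasts of Col2.3-ECFP mice, in which a fragment of the type I collagen promoter drives a cyan fluorescent protein, after treatment with vehicle (PBS) or parathyroid hormone (PTH). Injections of vehicle, or of PTH at 40 µg/kg, were given on 5 days a week for 3 weeks to mice that were 12 weeks old at the start, and bones were collected 24 h after the last injection. Live cells negative for lineage markers and CD45 and positive for ECFP were sorted from collagenase-digested bone of 3 vehicle and 3 PTH replicates, all of which carried the reporter. The second experiment compared 3 libraries of MC3T3-E1 cells, a clonal mouse osteoblast precursor line, that carried an empty pMX-IRES-Puro retroviral vector (mock) with 3 libraries of cells that carried the same vector with *Slpi*, which encodes a secreted protease inhibitor. Both sets of MC3T3-E1 cells had been selected with puromycin and were harvested when subconfluent. Expression was given as FPKM, the number of sequenced fragments scaled to the transcript length and to the size of the library, so that levels of different genes can be compared.

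ATF4 is a transcription factor whose protein is made when eIF2α is phosphorylated, by PERK when unfolded protein gathers in the endoplasmic reticulum (ER) or by GCN2 when amino acids run short. Because this control acts on translation, the *Atf4* mRNA need not follow the ATF4 protein, which was not measured in these libraries. ATF4 induces enzymes of serine and asparagine synthesis, amino acid transporters and its own partners and brakes, and in osteoblasts it is known for its part in amino acid import and the making of the collagen-rich matrix.

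The check of the labels came first. *Slpi* was at 386 ± 9.20 FPKM (SD, n = 3) in mock and 1975 ± 129 FPKM (SD, n = 3) in *Slpi*-overexpressing cells, and at 2.21 ± 0.513 and 28.2 ± 8.88 FPKM (SD, n = 3 each) in vehicle and PTH osteoblasts. *Sp7*, *Runx2*, *Alpl*, *Ibsp* and *Bglap* were present in all sorted libraries. *Col1a1* and *Col1a2* were listed at 0 in vehicle 3 and in all 3 PTH libraries, which can be a failed estimate. In vehicle 1 and 2, *Col1a1* was at 26216.5 and 24170.4 FPKM and *Col1a2* at 26654.7 and 24544 FPKM. These values are part of the sums of FPKM given below. Of 9 osteoblast markers, 2 were higher with PTH at an adjusted *p* under 0.05 (limma), where 6.38% of all genes were. These were *Spp1* and *Alpl*, with log2 fold changes of 0.81 and 0.60, and the median of the list, *Col1a1* and *Col1a2* included, was 0.39. In MC3T3-E1 cells *Bglap* was low, between 1.05 and 2.85 FPKM. Sums of FPKM ran from 400838.8 to 462460.2 in the sorted and from 541932.2 to 599746.4 in the MC3T3-E1 libraries, and the read depth relative to the first library of each experiment, taken from the steps between low values, ran from 0.787 to 1.40 and from 0.870 to 1. Libraries of a group correlated at r = 0.952 to 0.982 in sorted osteoblasts and at 0.995 to 0.997 in MC3T3-E1 cells, across genes of log2(FPKM + 1). Marker genes of other cells differed between sorted libraries: the summed FPKM of 6 T and NK cell markers was 81.8 to 124 in vehicle and 0.369 to 18.8 in PTH, that of 10 neutrophil markers was 375 to 471 in vehicle and 675 to 2297 in PTH, that of 4 megakaryocyte markers was 1.79 to 4.56 in vehicle, 177 and 142 in PTH 1 and 2 and 2.41 in PTH 3, and that of 4 heart muscle markers was 1747 in PTH 2 and at most 10.7 elsewhere.

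The upstream sequences were searched for matches to an ATF4 response element, and binding was not measured. The C/EBP-ATF response element, searched as TGATGNAA on both strands, was matched in 4 of the 10 genes, *Asns*, *Chac1*, *Slc7a11* and *Trib3*, and in 4.51% of 27025 genes. Over promoters, it was matched in 3.97% of 32851 RefSeq promoters of the same length (250 bases before to 50 after the start). The ER stress response element, searched on both strands as CCAAT and CCACG with any 9 bases between them, was found in *Hspa5* and in 0.119% of the promoters. The windows below hold 250 bases before the RefSeq start in GRCm38.p6 (mm10), 5′ to 3′ on the strand of the gene, and matches stand in capitals. In the GENCODE M21 annotation the genes *Asns*, *Chac1* and *Hspa5* begin inside their windows and *Slc7a11* at the last base of its window, so the matches of *Asns* and *Hspa5* lie before the RefSeq start but inside the GENCODE gene. *Asns* (chr6:7693210-7693459, minus strand), *Slc7a11* (chr3:50443614-50443863, minus strand) and *Chac1* (chr2:119350992-119351241, plus strand) are shown for the ATF4 element, and *Hspa5* (chr2:34771840-34772089, plus strand) for the ER stress element.
Asns: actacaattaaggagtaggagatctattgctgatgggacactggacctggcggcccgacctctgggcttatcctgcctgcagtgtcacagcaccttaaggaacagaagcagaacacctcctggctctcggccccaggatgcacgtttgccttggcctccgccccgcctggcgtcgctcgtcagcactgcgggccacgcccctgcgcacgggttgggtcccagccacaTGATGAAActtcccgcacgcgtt
Slc7a11: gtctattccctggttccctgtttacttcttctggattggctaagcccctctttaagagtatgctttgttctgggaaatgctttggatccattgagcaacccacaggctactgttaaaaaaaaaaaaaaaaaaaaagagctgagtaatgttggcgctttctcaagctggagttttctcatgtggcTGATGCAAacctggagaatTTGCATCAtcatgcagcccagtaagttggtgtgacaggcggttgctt
Chac1: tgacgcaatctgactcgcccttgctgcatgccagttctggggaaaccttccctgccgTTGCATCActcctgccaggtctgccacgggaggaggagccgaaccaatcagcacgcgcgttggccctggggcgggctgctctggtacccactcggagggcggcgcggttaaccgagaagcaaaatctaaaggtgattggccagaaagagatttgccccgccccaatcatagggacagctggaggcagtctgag
Hspa5: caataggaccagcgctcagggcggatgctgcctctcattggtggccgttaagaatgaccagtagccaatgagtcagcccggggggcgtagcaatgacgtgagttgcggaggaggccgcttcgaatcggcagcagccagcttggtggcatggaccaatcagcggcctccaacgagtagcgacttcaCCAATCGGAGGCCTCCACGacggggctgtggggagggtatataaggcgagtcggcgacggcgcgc

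*Slc7a11* held a pair of matches, from 66 to 59 bases before the start on the gene's strand and from 47 to 40 bases before it on the other, where the element reads TTGCATCA. The *Asns* match, TGATGAAA, lay from 23 to 16 bases before the start, and that of *Chac1* lay on the other strand, from 193 to 186 bases before it. In *Trib3* the match lay 15 to 22 bases after the RefSeq start, yet before the GENCODE start, and on the other strand (chr2:152344028-152344057, minus strand).
Trib3: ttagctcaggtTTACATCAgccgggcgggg

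*Phgdh*, the gene of the 10 with the largest log2 fold change of FPKM + 1 in sorted osteoblasts, had no match to either element in its window (chr3:98339970-98340219, minus strand), and neither had *Psat1*. The GENCODE gene *Phgdh* also begins inside the window. The window is shown for comparison with those of *Asns* and *Slc7a11*.
Phgdh: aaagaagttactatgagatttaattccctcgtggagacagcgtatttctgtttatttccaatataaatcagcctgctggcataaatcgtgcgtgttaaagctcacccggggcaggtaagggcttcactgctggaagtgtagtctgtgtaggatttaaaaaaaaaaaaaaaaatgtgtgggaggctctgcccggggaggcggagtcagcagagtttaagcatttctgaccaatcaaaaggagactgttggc

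In osteoblasts from PTH-treated mice, the serine synthesis enzyme *Phgdh* and the cystine transporter *Slc7a11* fell, and no gene of the 10 rose at an adjusted *p* under 0.05. *Atf4* itself and *Ddit3* were higher in every PTH library than in any vehicle library, whereas *Asns*, *Psat1*, *Phgdh* and *Slc7a11* were lower in every PTH library. All 10 genes were tested, although *Slc7a11* reached the filter of 1 FPKM only in the vehicle libraries, so its place in the counts of lower genes rests on the group in which it was high. Of the 10, 2 were called lower, where 8.85% of all 13004 genes tested were called lower and 6.38% higher. At an unadjusted *p* under 0.05, 2 were higher and 5 lower, against 16% and 17.5% of all genes. At least 2-fold on FPKM + 1 at that *p*, 0 were higher and 2 lower (*Phgdh* and *Slc7a11*). Of all genes, 1.24% and 4.35% were, or 5.59% in either direction. The ratio of the mean FPKM of *Trib3*, vehicle over PTH, was also above 2-fold, at 2.36. The groups did not overlap for 6 of the 10 genes, 2 higher and 4 lower with PTH, against 19.5% and 20.9% of all genes. The median log2 fold change of the 10 genes was -0.11, and that of all genes was 0.0066. In bulk libraries, fewer cells of a type that expresses a gene and less of its RNA per cell cannot be told apart.

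**Figure D1:**
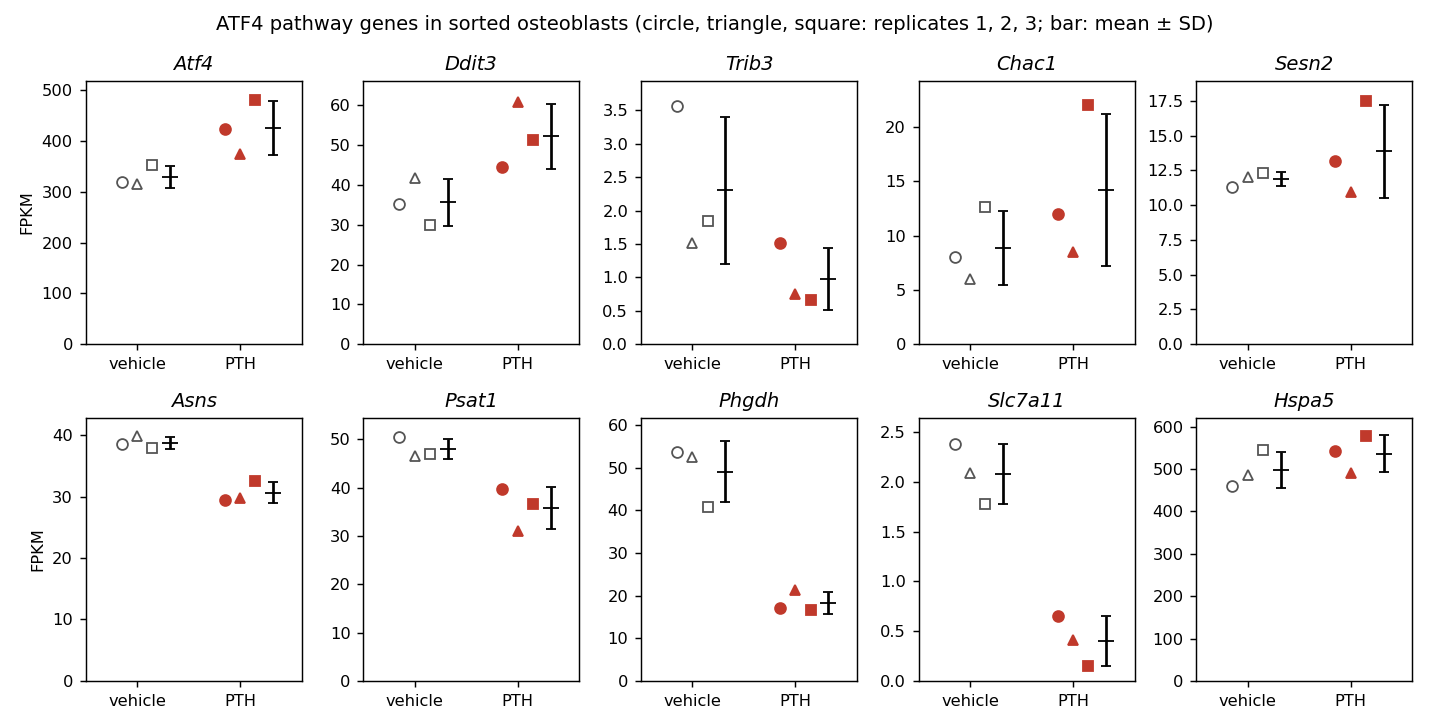
FPKM (y axis, from 0) of the 10 genes in vehicle (open grey) and PTH (filled red) osteoblasts, with circles, triangles and squares for replicates 1, 2 and 3 and bars for the mean ± SD (n = 3). *Phgdh* and *Slc7a11* show the widest gaps between the groups, and *Atf4*, *Chac1*, *Sesn2* and *Hspa5* are each highest in PTH 3 and lowest among PTH libraries in PTH 2.

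*Phgdh* encodes phosphoglycerate dehydrogenase, which carries out the first step of serine synthesis from glucose (mm10 chr3:98313170-98339990, minus strand). Its FPKM was 53.8, 52.6 and 40.8 in vehicle and 17.1, 21.2 and 16.6 in PTH osteoblasts. The lowest vehicle library was well above the highest PTH library, and the ratio of the means, vehicle over PTH, was 2.68. The log2 fold change of FPKM + 1 was -1.37 (SE 0.150, 95% interval -1.73 to -1.02, adjusted *p* = 0.0133, limma with Benjamini-Hochberg adjustment). Only 341 of the 13004 genes, *Phgdh* included, had a log2 fold change as low. With 3 libraries against 3, the two-sided exact permutation test gave *p* = 0.10, the smallest that this design allows. Without vehicle 1 or vehicle 2 the log2 fold change was -1.30 or -1.32, but the adjusted *p* rose to 0.0734 and 0.0736, and the genes called lower fell to 0 of 10 in each case, beside 4 and 5 lower at an unadjusted *p* under 0.05. In those same fits nearly all calls were lost across the genome, with 1 gene called higher and 0 lower without vehicle 1 and 0 in either direction without vehicle 2, and 1481 and 1700 or 1415 and 1638 genes higher and lower at an unadjusted *p* under 0.05.

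*Slc7a11* encodes the cystine importer xCT, which supplies cysteine for glutathione (mm10 chr3:49892526-50443614, minus strand). Its FPKM was 2.38, 2.09 and 1.77 in vehicle and 0.651, 0.415 and 0.148 in PTH osteoblasts. Every PTH library was far below the lowest vehicle library. The log2 fold change of FPKM + 1 was -1.14 (SE 0.207, 95% interval -1.63 to -0.66, adjusted *p* = 0.0204, limma), and with 0.1 in place of 1 added to FPKM it was -2.24. The added 1 is large beside these levels, so the first value understates the ratio of the means, 5.14 for vehicle over PTH. The values were whole multiples (tolerance 0.01) of a step scaled by relative depth, 137, 95 and 137 steps in vehicle and 42, 30 and 12 in PTH. A step may be a part of a read or several reads, so it gives the fineness of the value and not a read count. Without the filter, which *Slc7a11* passed through its vehicle values alone, the adjusted *p* was 0.0705, and without vehicle 1 or vehicle 2 it was 0.0962 and 0.0892.

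Of the 4 T and NK cell markers tested of 6 listed, 3 were also called lower with PTH. The other, *Nkg7*, was not called, and at 8.09 FPKM in PTH 1 it was above every vehicle library. The summed FPKM of the 6 markers was 18.8, 18.3 and 0.369 in PTH 1, 2 and 3. In the same libraries *Phgdh* was at 17.1, 21.2 and 16.6 FPKM and *Slc7a11* at 0.651, 0.415 and 0.148 FPKM. *Cd3g* was at 97.5, 87.3 and 60.4 FPKM in vehicle and 7.89, 10.7 and 0 in PTH. Of the 4 mast cell and basophil markers, *Cpa3* was lower, at 46.7 to 74.0 FPKM in vehicle and 0.269 to 7.52 in PTH, *Mcpt8* was at most 1.26 FPKM in any library, and *Ms4a2* and *Fcer1a* were at 0 in all 6. The part of these cells in the lower *Phgdh* and *Slc7a11* was not tested.

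Among 7413 genes with a mean FPKM of at least 5, *Gimap6* and *Ccdc22* were among the 3 whose levels followed *Phgdh* most closely over the 6 sorted libraries. Their root mean square differences from *Phgdh*, on centred log2(FPKM + 1), were 0.133 and 0.138, where *Phgdh* had an SD of 0.77. *Gimap6*, a GTPase gene described mostly in lymphocytes, went from 56.6 to 74.4 FPKM in vehicle to 24.9 to 27.8 in PTH, and *Ccdc22* from 10.2 to 17.8 to 3.70 to 5.54. Both genes were high in the vehicle and low in the PTH libraries, so the likeness rests largely on the group difference.

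*Psat1* encodes the transaminase of the next step of serine synthesis after *Phgdh* (mm10 chr19:15904678-15947337, minus strand). It was at 50.4, 46.6 and 47.1 FPKM in vehicle and 39.7, 31 and 36.6 FPKM in PTH osteoblasts. The groups did not overlap, but the log2 fold change of -0.42 (SE 0.116, 95% interval -0.69 to -0.15) had an adjusted *p* of 0.0520 (limma) and was not called. *Asns*, asparagine synthetase (mm10 chr6:7675169-7693254, minus strand), was at 38.5, 39.9 and 37.9 FPKM in vehicle and 29.4, 29.8 and 32.6 FPKM in PTH osteoblasts. The gap between the groups was wider than the spread within either, with a log2 fold change of -0.33 (SE 0.0917, 95% interval -0.55 to -0.11) and an adjusted *p* of 0.0531 (limma). Both genes lay just above the threshold, and both passed it with a filter on mean FPKM, with quantile normalization and with median ratio scaling. Neither passed it without the filter, with an unmoderated linear model, without the eBayes trend or when any library was left out. The highest adjusted *p* was 0.165 for *Asns* (limma, without vehicle 2) and 0.173 for *Psat1* (limma, without vehicle 1).

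*Atf4* (mm10 chr15:80255184-80257541, plus strand) was at 319, 315 and 353 FPKM in vehicle and 424, 374 and 481 FPKM in PTH osteoblasts. All PTH libraries were above all vehicle libraries, with a log2 fold change of 0.37 (SE 0.116, 95% interval 0.09 to 0.64) and an adjusted *p* of 0.0755 (limma). Without PTH 2, the library that held heart muscle transcripts, the log2 fold change was 0.46 and *Atf4* was called higher (adjusted *p* = 0.0439). With quantile normalization it was 0.07. *Ddit3*, which encodes CHOP, a transcription factor induced by ATF4 under lasting stress (mm10 chr10:127290829-127293753, plus strand), was at 35.2, 41.7 and 29.97 FPKM in vehicle and 44.5, 60.8 and 51.3 FPKM in PTH osteoblasts. Its groups did not overlap either, and the log2 fold change was 0.54 (SE 0.161, 95% interval 0.16 to 0.92, adjusted *p* = 0.0640, limma).

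*Trib3* encodes a pseudokinase that is induced by ATF4 and CHOP and restrains them (mm10 chr2:152337422-152344032, minus strand). It was low, at 3.56, 1.51 and 1.84 FPKM in vehicle and 1.52, 0.745 and 0.666 FPKM in PTH osteoblasts. PTH 1 and vehicle 2 were nearly equal, so the groups overlapped. The log2 fold change was -0.72 (SE 0.285, 95% interval -1.39 to -0.05, adjusted *p* = 0.129, limma), and it was -0.46 without vehicle 1, the highest library. With 0.1 in place of 1 added to FPKM the log2 fold change was -1.15. The ratio of the means was 2.36 for vehicle over PTH. *Chac1*, whose product breaks down glutathione (mm10 chr2:119351229-119354381, plus strand), was at 8.04, 5.98 and 12.6 FPKM in vehicle and 12.01, 8.52 and 22.0 FPKM in PTH osteoblasts. Vehicle 3 was above both PTH 1 and PTH 2, and the log2 fold change of 0.58 had a 95% interval from -0.28 to 1.43 (adjusted *p* = 0.304, limma). It was 0.23 without PTH 3.

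*Sesn2*, a leucine sensor that lowers mTORC1 activity (mm10 chr4:132492032-132510501, minus strand), was at 11.3, 12.01 and 12.3 FPKM in vehicle and 13.2, 10.9 and 17.5 FPKM in PTH osteoblasts. PTH 2 was the lowest of all 6 libraries and PTH 3 the highest, and the log2 fold change of 0.18 (95% interval -0.21 to 0.58, adjusted *p* = 0.473, limma) was 0.014 without PTH 3. *Hspa5*, the ER chaperone BiP and a marker of the unfolded protein response (mm10 chr2:34771970-34777547, plus strand), was at 461, 487 and 545 FPKM in vehicle and 542, 492 and 577 FPKM in PTH osteoblasts. Its groups overlapped, with a log2 fold change of 0.11 (95% interval -0.14 to 0.36, adjusted *p* = 0.494, limma), and the sign turned to -0.10 with quantile normalization. *Atf4*, *Chac1*, *Sesn2* and *Hspa5* shared an order among the PTH libraries, with PTH 3 highest and PTH 2 lowest. The summed FPKM of 9 genes of the response to tissue digestion had the same order, at 2926, 2634 and 4192 in PTH 1, 2 and 3 against 2114 to 2520 in vehicle, and its part in these levels was not tested.

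The order of the levels changed between the sorted groups. In vehicle osteoblasts *Hspa5* (498 ± 42.8 FPKM, SD, n = 3) and *Atf4* (329 ± 21.0) led, followed by *Phgdh* (49.1 ± 7.16) and *Psat1* (48.0 ± 2.07), whose ranges overlapped, then *Asns* and *Ddit3*, whose ranges also overlapped. *Sesn2* and *Chac1* came next with overlapping ranges, and *Trib3* and *Slc7a11* were lowest, again overlapping. In PTH osteoblasts *Phgdh* (18.3 ± 2.56 FPKM, SD, n = 3) lay below *Ddit3* (52.2 ± 8.18), *Psat1* (35.8 ± 4.43) and *Asns* (30.6 ± 1.70), and its range overlapped that of *Chac1*.

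In MC3T3-E1 cells that overexpressed *Slpi*, enzymes of serine and asparagine synthesis were higher than in mock cells. *Asns*, *Psat1*, *Phgdh*, *Sesn2* and *Trib3* rose, none of the genes fell, and *Atf4*, *Ddit3*, *Chac1* and *Hspa5* were not called. Of 9 genes tested, 5 were called higher, where 31.9% of all 11466 genes tested were called higher and 28.9% lower. At an unadjusted *p* under 0.05 the same 5 were higher, against 34% of all genes. None of the 9 changed by as much as 2-fold on FPKM + 1. Of all genes, 0.75% did so upward and 0.384% downward at that *p*, or 1.13% in either direction. The groups did not overlap for 6 of the 10 genes, all higher with *Slpi*, against 34.9% of all genes higher, 32.2% lower and 67.1% in either direction. The median log2 fold change of the 9 genes was 0.22, and that of all genes was 0.0041. Nothing states that the 3 libraries of a group came from separate cultures, so *p* values measure the spread between these libraries, which may be technical.

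**Figure D2:**
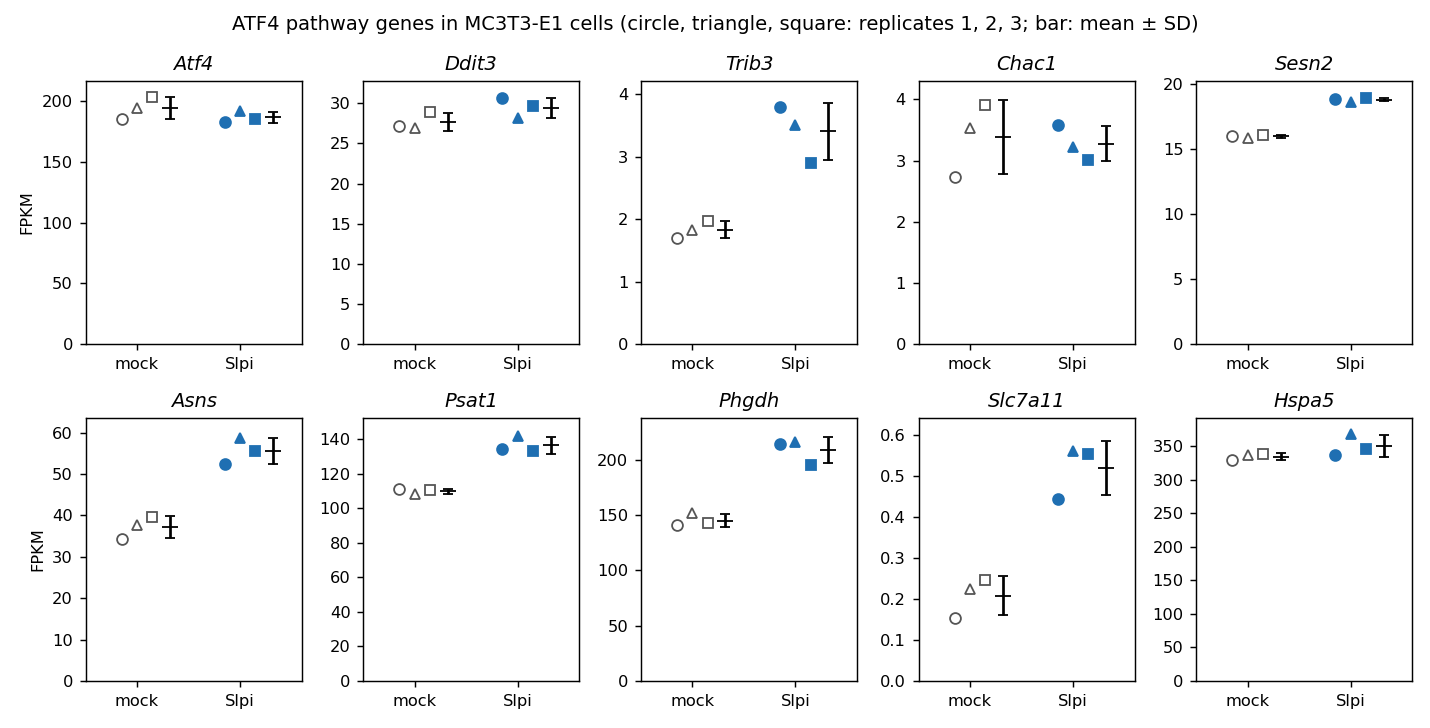
FPKM (y axis, from 0) of the 10 genes in mock (open grey) and *Slpi*-overexpressing (filled blue) MC3T3-E1 cells, with circles, triangles and squares for replicates 1, 2 and 3 and bars for the mean ± SD (n = 3). The *Slpi* libraries lie above all mock libraries for *Trib3*, *Sesn2*, *Asns*, *Psat1*, *Phgdh* and *Slc7a11*, and the groups overlap for the other genes.

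*Phgdh* was at 141, 152 and 143 FPKM in mock and 215, 217 and 196 FPKM in *Slpi* cells. The groups were clearly apart, and the log2 fold change of FPKM + 1 was 0.52 (SE 0.0483, 95% interval 0.41 to 0.63, adjusted *p* = 4.8e-05, limma with Benjamini-Hochberg adjustment). *Psat1*, the enzyme that follows it, was at 111, 108 and 110 FPKM in mock and 134, 142 and 133 FPKM in *Slpi* cells. Its mock libraries lay within 3 FPKM of each other, and its log2 fold change was 0.31 (SE 0.0347, adjusted *p* = 1.2e-04, limma). *Asns* was at 34.3, 37.8 and 39.6 FPKM in mock and 52.4, 58.8 and 55.4 FPKM in *Slpi* cells, with a log2 fold change of 0.57 (SE 0.0597, adjusted *p* = 8.9e-05, limma). For each of the 3 enzymes the exact permutation test gave the smallest *p* that 3 against 3 libraries allow, 0.10.

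*Trib3* had the largest log2 fold change of the 9 genes tested, with 1.70, 1.83 and 1.97 FPKM in mock and 3.80, 3.51 and 2.91 FPKM in *Slpi* cells. Every *Slpi* library was above every mock library, and the log2 fold change was 0.63 (SE 0.0874, 95% interval 0.43 to 0.83, adjusted *p* = 3.7e-04, limma). At such low levels the added 1 makes this smaller than the ratio of the means, which was 1.86. *Sesn2* was at 16.0, 15.8 and 16.1 FPKM in mock and 18.8, 18.6 and 18.9 FPKM in *Slpi* cells, a small difference with very little spread (log2 fold change 0.22, SE 0.0337, adjusted *p* = 6.1e-04, limma). The genes closest in pattern to *Trib3* over the 6 libraries, among 8732, were *Tyms*, *Rabggtb* and *Aurkb*, with root mean square differences of 0.0435, 0.0597 and 0.0600 where *Trib3* had an SD of 0.36. *Tyms*, thymidylate synthase, went from 20.3 to 21.7 FPKM in mock to 31 to 34.7 in *Slpi* cells. *Rabggtb* and *Aurkb* were also higher in every *Slpi* than in any mock library, so the likeness rests largely on the group difference.

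*Slc7a11* stayed under 1 FPKM in every MC3T3-E1 library and was not tested. It was at 0.154, 0.225 and 0.246 FPKM in mock and 0.444, 0.561 and 0.553 FPKM in *Slpi* cells. The groups did not overlap, and the difference on the log2(FPKM + 1) scale was 0.33. When no filter was used it was called higher (adjusted *p* = 0.00946, limma).

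*Atf4* itself was not called. It was at 185, 194 and 203 FPKM in mock and 183, 192 and 186 FPKM in *Slpi* cells, and the log2 fold change of -0.06 had a 95% interval from -0.15 to 0.04 (adjusted *p* = 0.256, limma). When FPKM were rescaled to an equal sum, or quantile normalized, *Atf4* was called lower. *Ddit3* was at 27.2, 26.9 and 28.9 FPKM in mock and 30.6, 28.1 and 29.6 FPKM in *Slpi* cells, with a log2 fold change of 0.09 (95% interval -0.01 to 0.19, adjusted *p* = 0.119, limma). Slpi 2 lay below mock 3, so the groups overlapped. *Chac1* was at 2.73, 3.53 and 3.91 FPKM in mock and 3.59, 3.23 and 3.01 FPKM in *Slpi* cells (log2 fold change -0.03, 95% interval -0.27 to 0.21, adjusted *p* = 0.812, limma), a sign that turned when mock 3 or Slpi 3 was left out. *Hspa5* was at 329, 337 and 338 FPKM in mock and 337, 368 and 346 FPKM in *Slpi* cells, with a log2 fold change of 0.07 (adjusted *p* = 0.172, limma).

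**Figure D3:**
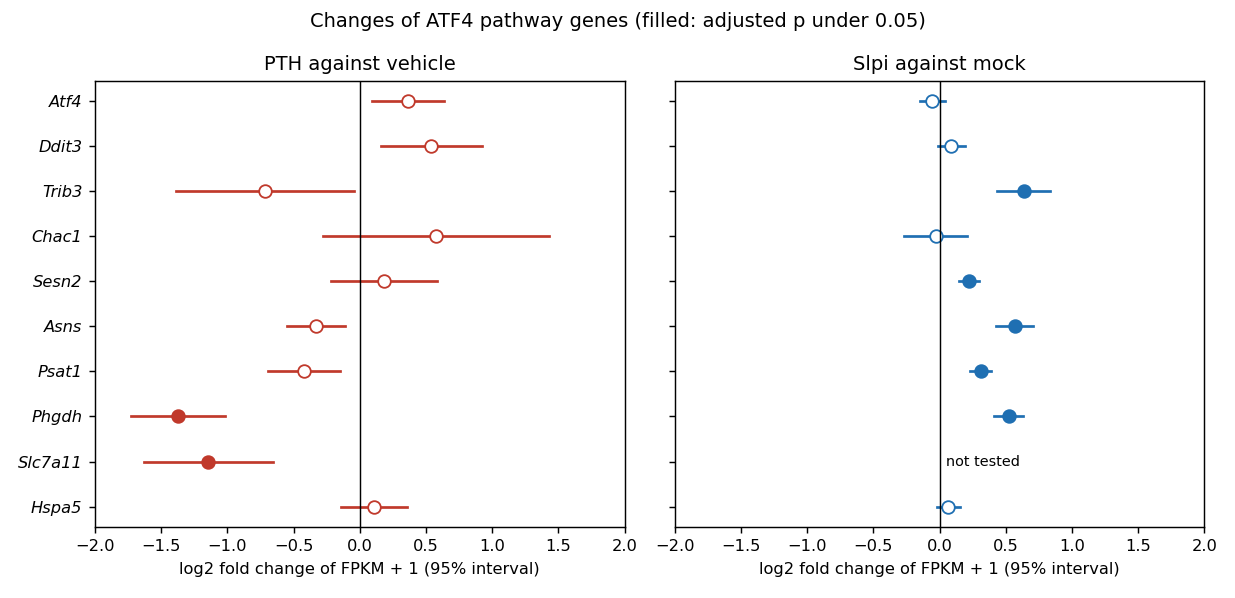
Log2 fold change of FPKM + 1 (x axis; points, with 95% intervals as lines) of the 10 genes for PTH against vehicle (left) and *Slpi* against mock (right), with filled points for an adjusted *p* under 0.05. *Phgdh* lies at -1.37 on the left and 0.52 on the right, and *Atf4* at 0.37 and -0.06.

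Set side by side, *Asns*, *Psat1*, *Phgdh* and *Slc7a11* were lower in all PTH than in all vehicle libraries and higher in all *Slpi* than in all mock libraries. Of the 9 genes tested in both experiments 3 had this pattern (*Asns*, *Psat1* and *Phgdh*), as did 11.6% of all 10095 genes tested in both. The experiments were normalized separately and differ in cells and, by the labels, in library kit, so the difference between them was not tested. The levels also differed: *Phgdh* was at 49.1 ± 7.16 FPKM in vehicle osteoblasts and 145 ± 6.02 FPKM in mock cells, and *Psat1* at 48.0 ± 2.07 and 110 ± 1.59 FPKM (SD, n = 3 each). *Atf4* was the reverse, at 329 ± 21.0 FPKM in vehicle osteoblasts and 194 ± 9.02 FPKM in mock cells. In *Slpi* cells *Phgdh* (209 ± 11.7 FPKM) stood above *Atf4* (187 ± 4.65 FPKM), which was the other way round in the other 3 groups. The ranges of *Asns* in vehicle and mock overlapped.

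Neighbouring pathways were described through 6 lists with 87 genes in all, which do not hold the 10 genes. Every count called with PTH on these lists was 0 without vehicle 1 and without vehicle 2, as nearly all calls across the genome were. None of 9 genes of the eIF2α kinases and phosphatases was called with PTH in either direction, and 2 were called higher with *Slpi*: *Eif2s1*, the eIF2α subunit itself (log2 fold change 0.40), and *Ppp1r15b*, which guides its phosphatase (0.22). Both had an adjusted *p* under 0.05 (limma), where 31.9% of all genes were called higher. The median log2 fold change of this list was -0.02 with PTH and 0.02 with *Slpi*.

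The other serine, glycine, proline and 1-carbon enzymes moved in both directions with PTH, with 2 of 12 called higher and 3 lower, where 6.38% and 8.85% of all genes were, and a median log2 fold change of -0.54. *Psph*, the last enzyme of serine synthesis, was at 12.9, 16.9 and 10.6 FPKM in vehicle and 6.52, 4.41 and 6.04 FPKM in PTH osteoblasts, a log2 fold change of -1.11 (adjusted *p* = 0.0204, limma). *Shmt2*, which turns serine into glycine in mitochondria, went from 42.2, 44.4 and 36.0 to 23.8, 20.5 and 20.7 FPKM, a log2 fold change of -0.88 (adjusted *p* = 0.0139, limma). *Shmt1*, its cytosolic counterpart, was at 8.24 to 11.5 FPKM in vehicle and at 1.36, 4.30 and 0.180 FPKM in PTH osteoblasts, with a log2 fold change of -2.18 and a wide spread (adjusted *p* = 0.0331, limma). The summed FPKM of the 6 T and NK cell markers was 18.8, 18.3 and 0.369 in PTH 1, 2 and 3, so it was also lowest in PTH 3. The part of such cells in the lower *Shmt1* was not tested. *Aldh1l2*, a mitochondrial folate enzyme, and *Pycr1*, which makes proline, were higher with PTH, with log2 fold changes of 0.86 and 0.70 (adjusted *p* = 0.0242 and 0.0236, limma). *Phgdh*, *Psat1* and *Psph*, the 3 enzymes of the serine pathway, were lower in every PTH library than in any vehicle library. The same held for 20.9% of all genes. *Phgdh* and *Psph* were called and *Psat1* was not.

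With *Slpi*, 8 of the 12 were called higher and 1 lower, where 31.9% and 28.9% of all genes were, with a median log2 fold change of 0.27. *Shmt2* was at 48.1, 49.8 and 50.6 FPKM in mock and 132, 146 and 127 FPKM in *Slpi* cells, a log2 fold change of 1.43 (adjusted *p* = 6.1e-07, limma). *Shmt1* (0.88) and *Mthfd2*, a mitochondrial folate enzyme (0.75), followed, and *Got1*, an aspartate transaminase, was called lower (-0.14), but not without mock 2, mock 3 or Slpi 1. *Psph* was called higher, with a log2 fold change of 0.19 (adjusted *p* = 0.00908, limma).

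Of the amino acid transporters, 2 of 9 tested were called higher and 2 lower with PTH, where 6.38% and 8.85% of all genes were. *Slc38a1*, which carries glutamine, was at 9.10 to 12.01 FPKM in vehicle and 2.49, 2.94 and 0.284 FPKM in PTH osteoblasts (log2 fold change -2.19, adjusted *p* = 0.0219, limma). *Slc38a1* was lowest in PTH 3, as the summed T and NK cell markers were, and the part of T and NK cells was not tested. *Slc1a5*, another glutamine transporter, fell by 1.02 on the log2 scale (adjusted *p* = 0.0133, limma). The glycine transporter *Slc6a9* and the alanine and serine transporter *Slc1a4* rose by 0.71 and 0.54 on that scale (adjusted *p* = 0.0324 and 0.0457, limma). With *Slpi*, 5 of 8 tested were called higher, where 31.9% of all genes were, led by *Slc7a1* (0.87) and *Slc7a5* (0.51), importers of cationic and of large neutral amino acids, and *Slc1a5* (0.17), and *Slc3a2*, the partner chain of *Slc7a5* and *Slc7a11*, was called lower (-0.11). The 2 called higher with PTH became 0 also without vehicle 3 or PTH 1, and the 5 called higher with *Slpi* became 2 without mock 1 or with an equal sum of FPKM, and 3 without mock 2, mock 3, Slpi 1 or Slpi 2.

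The 20 cytosolic aminoacyl-tRNA synthetases, which charge tRNAs with amino acids, had mostly the same sign of change within each experiment. With PTH, 0 were called higher and 4 lower, where 6.38% and 8.85% of all genes were, 16 of the 20 log2 fold changes were negative, and the median was -0.23. *Farsb*, *Vars* and *Wars*, the enzymes for phenylalanine, valine and tryptophan, had log2 fold changes of -0.95, -0.71 and -0.58. With *Slpi*, 17 of 20 were called higher and 0 lower, where 31.9% and 28.9% of all genes were, all 20 log2 fold changes were positive, and the median was 0.26. *Mars*, the enzyme for methionine, was at 38.3, 40.0 and 40.4 FPKM in mock and 68.1, 74.2 and 68.2 FPKM in *Slpi* cells, a log2 fold change of 0.81 (adjusted *p* = 4.0e-06, limma), and *Vars* and *Farsb* had 0.58 and 0.56. When FPKM were rescaled to an equal sum, 12 of the 20 were called higher with *Slpi*. The 4 called lower with PTH became 0 without the filter or with an unmoderated linear model. They became 1 without PTH 1 and 2 without PTH 3. Over all genes the median log2 fold change was 0.0066 with PTH and 0.0041 with *Slpi*.

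**Figure D4:**
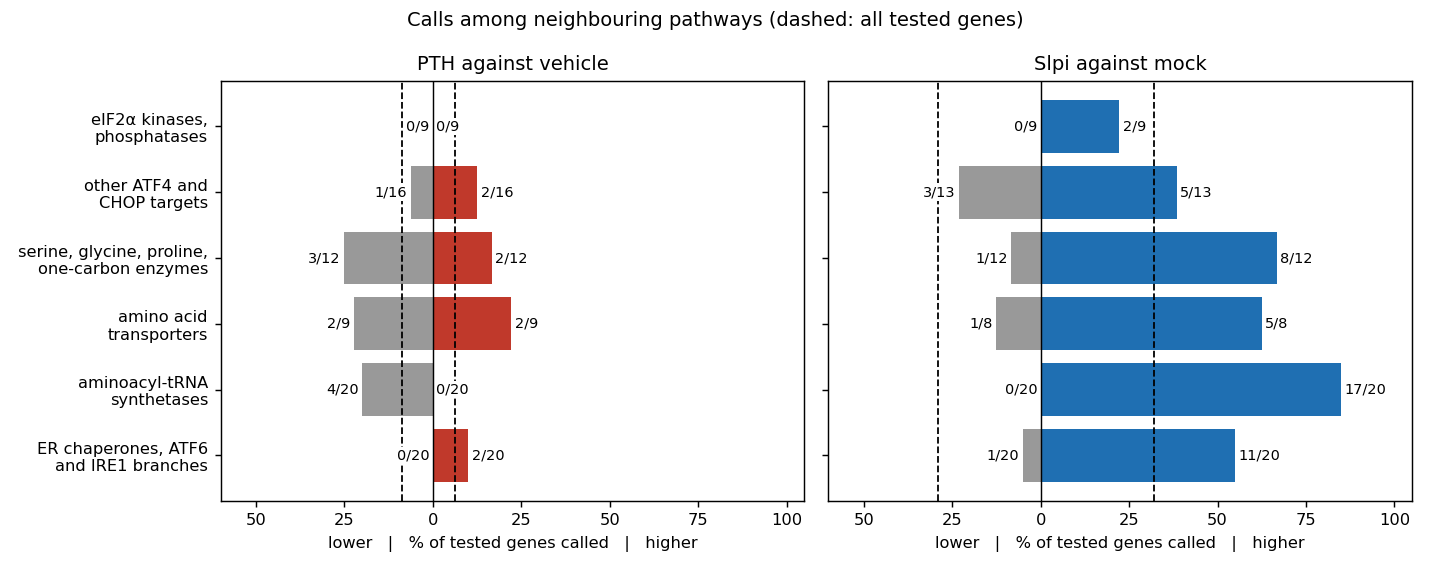
Percent of the tested genes of each list called at an adjusted *p* under 0.05 (x axis; coloured bars to the right for higher, grey bars to the left for lower), for PTH against vehicle (left) and *Slpi* against mock (right), with the numbers of genes beside the bars and dashed lines for all tested genes. The tRNA synthetases show 0 of 20 higher and 4 of 20 lower with PTH and 17 of 20 higher with *Slpi*.

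Of the other ATF4 and CHOP target genes, 2 of 16 tested were called higher with PTH, *Jdp2*, a transcriptional repressor (log2 fold change 0.81), and *Gadd45a*, a growth arrest gene (0.58), and *Ero1l*, an ER oxidase, was called lower (-1.18), where 6.38% of all genes were called higher and 8.85% lower. With *Slpi*, 5 of 13 were called higher and 3 lower, where 31.9% and 28.9% of all genes were, so these shares lie near those of all genes. The largest rises were those of *Vldlr* (0.92), a lipoprotein receptor, *Nupr1* (0.90), a stress-induced nuclear protein, and *Atf5* (0.61), a relative of *Atf4*, and *Cebpb*, *Ddit4* and *Jdp2* fell by 0.73, 0.46 and 0.44 on the log2 scale. *Cebpb* was at 58.8, 33.1 and 34.95 FPKM in mock and 26.8, 22.4 and 23.6 FPKM in *Slpi* cells, so that mock 1 stood apart. The 2 called higher with PTH became 0 also without PTH 1 or PTH 3. *Jdp2* was thus called higher with PTH and lower with *Slpi*.

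The ER chaperones and genes of the ATF6 and IRE1 branches, the neighbours of *Hspa5*, had 2 of 20 called higher and 0 lower with PTH, where 6.38% and 8.85% of all genes were, and 17 positive log2 fold changes with a median of 0.21. *Xbp1*, the transcription factor of the IRE1 branch, was at 107 to 121 FPKM in vehicle and 151 to 181 FPKM in PTH osteoblasts (log2 fold change 0.57, adjusted *p* = 0.0210, limma), and *Hsp90b1*, an ER chaperone, rose by 0.42 (adjusted *p* = 0.0382, limma). The 2 became 0 also without PTH 1 or with quantile normalization. Of 5 plasma cell markers listed, 3 had values in the sorted libraries, and *Jchain* and *Mzb1* had none. *Sdc1*, which other cells also express, was higher with PTH (6.63 to 8.41 FPKM in vehicle and 14.8 to 15.8 FPKM in PTH osteoblasts), whereas *Tnfrsf17* and *Prdm1* stayed under 1 FPKM in all 6 libraries. The part of plasma cells was not tested. With *Slpi*, 11 of 20 were called higher and 1 lower, where 31.9% and 28.9% of all genes were. *Xbp1* rose again, from 56.9 to 60.2 FPKM in mock to 81.9 to 85.2 FPKM in *Slpi* cells (log2 fold change 0.50, adjusted *p* = 1.2e-05, limma), with *Manf* (0.34) and *Dnajc3* (0.33), which assist folding, while *Sel1l*, of the ER degradation complex, was called lower (-0.12).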

How the data were processed

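Per the labels and methods, the authors sequenced RNA on a HiSeq instrument in single-end mode (75 bases), mapped reads to mm10 (TopHat2 2.0.13; Bowtie2 in version 2.2.3; SAMtools in version 0.1.19) and deposited FPKM per gene from Cuffnorm of Cufflinks 2.2.1. The annotation and the scaling option are not given in the sources used here. The labels name a SMART-Seq kit for sorted and a TruSeq stranded kit for MC3T3-E1 cells. The methods differ from the labels, as they describe only the SMART-Seq kit and do not set the MC3T3-E1 cells apart.

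Each experiment was fitted alone on log2(FPKM + 1) with the limma package, version 3.58.1 (R version 4.3.3; trended eBayes), for genes that reached an FPKM of 1 in any of the 6 libraries. *P* values were adjusted over all tested genes by the Benjamini-Hochberg method, and a call is an adjusted *p* under 0.05 at any size. Exact permutation tests and summaries used Python 3.11.15, numpy 2.4.6, pandas 2.3.3 and scipy 1.17.1. On simulated data in which 200 genes differed by 2 on the log2 scale, 180 (sorted design, 12547 genes tested) and 199 (MC3T3-E1 design, 11334 genes) were recovered, with 10 and 6 false calls. The log2 fold changes of the 10 genes were smaller in size, the largest being -1.37 (*Phgdh* with PTH). Recovery at such smaller sizes was not tested. Genes of low level were only raised in the simulation, so a fall of a low gene such as *Slc7a11* was not simulated. Each gene was drawn on its own, so differences shared by many genes of a library were not simulated either. Gene positions are those of GENCODE M21. FPKM are not counts, so no counting interval is given.

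The 10 genes and the lists were chosen with earlier results of these data known. All 10 are named, with up to 3 called genes of largest change per list and direction, the 3 genes closest in pattern to the most variable tested gene of each experiment, of which 1 is not reported here, and *Slpi*. *Psph* with *Slpi* and the named markers were chosen after their values were seen. The alternatives were other filters, pseudocounts, moderations and scalings, a replicate block and leaving out each library. Counts for the lists under these were added after seeing the data.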

Additional observations from a re-analysis of the deposited data

How the results depend on the processing

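With PTH, the 2 genes called lower became 0 without a filter on low values and with an unmoderated linear model (4 each at an unadjusted *p* under 0.05), and 4 with a filter on mean FPKM, quantile normalization or median ratio scaling. The count ran from 0 to 2 when libraries were left out in turn, and the count called higher from 0 to 1. Adjusted *p* ran from 0.0075 to 0.0736 for *Phgdh* and from 0.0201 to 0.0962 for *Slc7a11* (limma). Over all genes, 830 called higher and 1151 lower became 10 and 8 without the filter and 0 and 1 with the unmoderated model (1781 and 2042 at an unadjusted *p* under 0.05), and ranged from 0 to 674 and from 0 to 895 when libraries were left out. With an equal sum 546 were called higher. The share of calls that were higher was 41.9%, and 31.3% with an equal sum. For *Slpi* it was 52.5% and 35.4%, with 3658 and 2430 genes called higher. With *Slpi*, 5 or 6 of the 10 genes were called higher under every alternative, and 1 was called lower (*Atf4*) with quantile normalization or an equal sum. Signs turned for *Hspa5* with PTH (-0.10, quantile normalization) and, with *Slpi*, for *Ddit3* (-0.0028) and *Hspa5* (-0.028) with an equal sum and for *Chac1* with quantile normalization (0.012) and when libraries were left out (-0.14 to 0.055, positive without mock 3 or Slpi 3). Beyond what the construction of an alternative gives, the cause was not tested.

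With the replicate number as a block, 3 of the 10 genes were called higher with PTH (*Atf4*, *Ddit3* and *Chac1*, adjusted *p* = 0.0385, 0.0354 and 0.0334, limma) and 3 lower. Same-numbered libraries deviated together at r = 0.0294, 0.0735 and 0.102 in sorted osteoblasts and 0.0385, -0.0523 and -0.00026 in MC3T3-E1 cells, and nothing states that a number marks a shared day or batch, so the numbers were taken as names only. The block changed no other call among the 10 genes except that of *Psat1* with PTH (adjusted *p* = 0.0412).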
